A study of Mus musculus with 4 samples.

Results

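Described here are 9 regulators of programmed cell death in mouse liver, chosen by symbol among the 27027 gene entries of the table. They were Bcl2l1, Mcl1, Bcl2l11, Bid, Casp8, Casp1, Ripk1, Ripk3 and Mlkl, all of them present. The rule that picks them uses no measured value, but the set was chosen with earlier results of these data known. Male C57BL/6 mice (C57BL/6J in the study's methods), 9 to 12 weeks old and fasted for 10 h, received acetaminophen (APAP) at 300 mg/kg or 0.9% NaCl by intraperitoneal injection, and livers were taken 24 h or 48 h later after perfusion with PBS. All mice, controls included, were unmodified and had been fasted. RNA of 6 control or 7 APAP mice was pooled in equal shares per condition, which gave 4 pools of 1 library each: Control 24 h, Control 48 h, APAP 24 h and APAP 48 h. The libraries were made by MACE, a 3′ mRNA sequencing method in which 1 tag stands for the end of 1 transcript and copies made by PCR are removed with molecular identifiers. A pool has no spread between animals, so every interval given for a single time point covers counting error only and compares libraries, not conditions.

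APAP at this dose is turned in hepatocytes into a reactive product that depletes glutathione, binds mitochondrial proteins and kills the cell mainly by necrosis. Members of the BCL-2 family decide whether the outer mitochondrial membrane is opened: BCL-XL and MCL-1 keep it closed, and BH3-only proteins such as BIM and BID oppose them. Caspase-8 starts apoptosis below death receptors and can feed into the mitochondrial route by cutting BID, whereas RIPK1, RIPK3 and MLKL form the necroptosis chain that caspase-8 holds in check. Caspase-1 is the enzyme of the inflammasome, which matures interleukins and cuts the pore protein gasdermin D in pyroptosis.

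The libraries held 4859661 and 5191990 reads (Control 24 h and 48 h) and 5698778 and 4938164 reads (APAP 24 h and 48 h), so 1 read was worth between 0.175 and 0.206 RPM (a library's reads scaled to a common total). Folds are ratios of reads normalised by median-of-ratios size factors, APAP over the control of the same time. A gene was called higher or lower where the fold was at least 2 and its 95% exact counting interval lay off 1, and 14028 genes entered, those averaging 5 normalised reads or more over the 4 libraries. Hepatocyte markers (6 genes such as Alb and Ttr) summed to 73791 to 75485 RPM in the controls and 73989 to 90303 RPM in the APAP pools.

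Of the 9 regulators, all of which passed the filter on low values, 2 were called higher at 24 h (Bcl2l11 and Mlkl) and 2 at 48 h (Bcl2l11 and Ripk3), and 0 were called lower at either time. Among all genes tested, 5.25% were called higher and 4.93% lower at 24 h, and 5.14% and 4.88% at 48 h. Bcl2l11 alone was called higher at both times, against 1.67% of all genes. Ripk3 passed the filter only through its APAP pools (4.55 and 1.07 normalised reads in the controls), so its place among the called genes carries little weight. The median log2 fold of the 9 was 0.83 at 24 h and 0.74 at 48 h, beside 0.01 and 0.00 for all genes tested. As the 9 were chosen with earlier results known, this contrast is a description and not a test. The fold was above 1 for 9 of 9 at 24 h and for 8 of 9 at 48 h (50.2% and 49.6% of all genes), with Casp1 below 1 at 48 h. That count turns on Casp1, which was below 1 at 24 h against the other control pool (0.794) and above 1 at 48 h by library totals (1.05) or against the other pool (1.24), and on Casp8, which was level at 48 h and at 0.969 against the other pool. The counting interval lay above 1 for 5 at 24 h (14.4% of all genes) and for 4 at 48 h (13.1% of all genes). Those with an interval above 1 at both times were Bcl2l1, Bcl2l11 and Bid. At 5-fold, the threshold the study used, only Bcl2l11 at 24 h qualified (0.905% of all genes), and 0 members did at 48 h (0.542%). Against the other control pool, with both controls summed or with a floor of 10 reads the Bcl2l11 fold at 24 h was 3.12, 3.94 or 3.82, below that threshold.

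**Figure D1:**
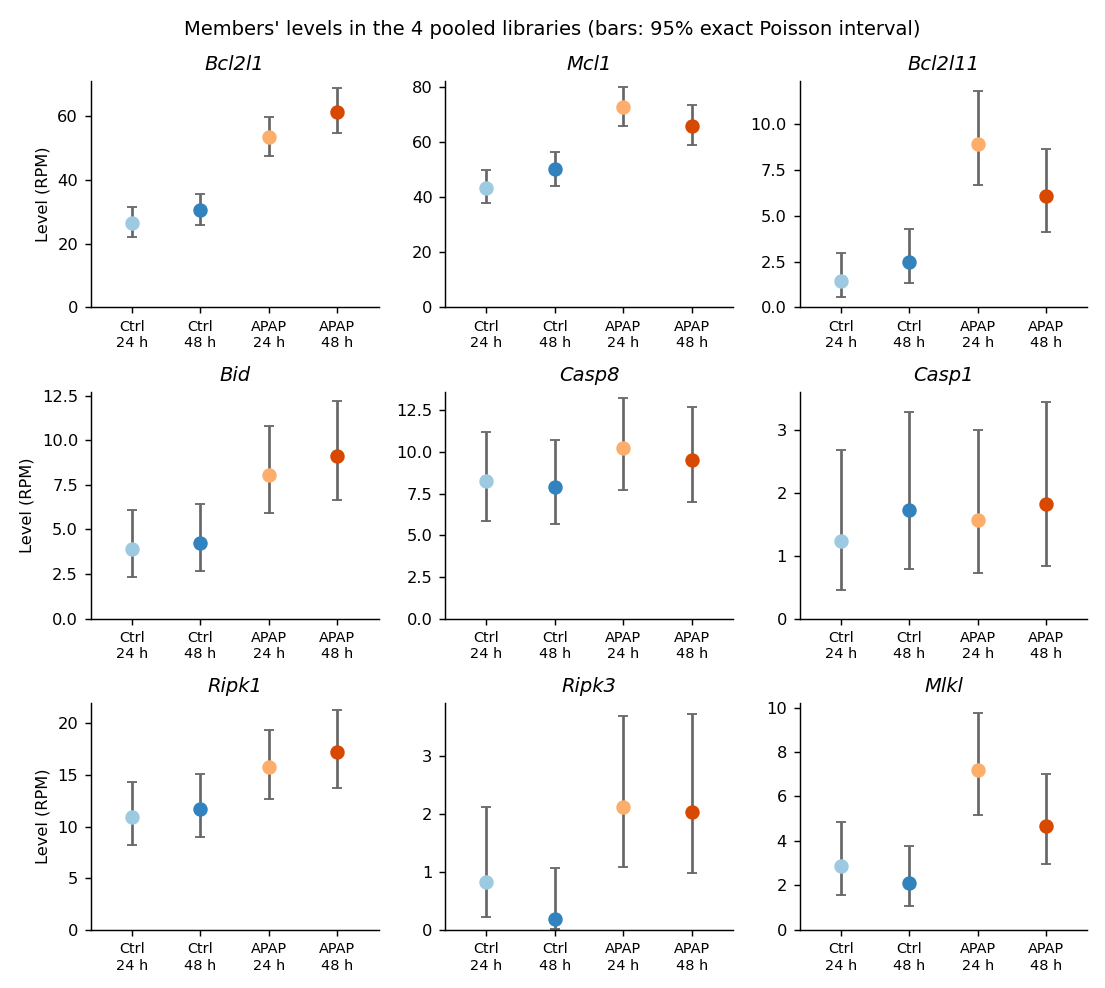
Level of each of the 9 regulators in RPM (vertical axis, from 0, own scale per gene) in the 4 pooled libraries; points are single libraries and bars are 95% exact Poisson intervals. Bcl2l1 stands at 26.3 and 30.4 RPM in the controls and at 53.3 and 61.2 RPM in the APAP pools, while the bars of Casp8 and Casp1 overlap in all 4 libraries.

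The scale matters for these counts. Dividing by library totals instead shifted the median log2 fold of all genes by 0.19 at 24 h and 0.27 at 48 h, and of the genes called it moved the share that were higher from 51.6% to 71.6% at 24 h and from 51.3% to 76.7% at 48 h. On that scale 4 regulators were called higher at 24 h (Bcl2l1, Bcl2l11, Bid and Mlkl; 8.13% of all genes) and 5 at 48 h (these 4 and Ripk3; 9.34% of all genes), and 0 were called lower. Folds below are relative to the median gene, and RPM values are on the scale of library totals.

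Since Bcl2l11, Mlkl and Ripk3 were called higher and Bcl2l1 passed the test over both times given below, the 250 bases before an annotated start of each are shown. Where a gene had several starts, the window that holds a motif match was taken. They are from RefSeq on GRCm38.p6, the build of the deposited mapping (mm10), and are written 5′ to 3′ on the strand of the gene. All 9 regulators matched the RefSeq table, with 13 windows between them. Capitals mark matches, on either strand, to 5 short motifs searched: AP-1 (TGANTCA), EGR (GCGNGGGCG), FOXO (TGTTTAC), STAT (TTCNNNGAA) and NF-kB (GGGANTTCC), where N is any base. No motif shares its letters with another at these places.
Bcl2l11, chr2:128125788-128126037, plus strand, 1 of 2 starts: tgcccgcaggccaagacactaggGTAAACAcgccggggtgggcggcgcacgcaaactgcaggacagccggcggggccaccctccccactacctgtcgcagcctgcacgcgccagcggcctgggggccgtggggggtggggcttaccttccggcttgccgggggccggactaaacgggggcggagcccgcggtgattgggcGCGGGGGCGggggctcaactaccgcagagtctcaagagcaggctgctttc
Bcl2l1, chr2:152830718-152830967, minus strand, 1 of 3 starts: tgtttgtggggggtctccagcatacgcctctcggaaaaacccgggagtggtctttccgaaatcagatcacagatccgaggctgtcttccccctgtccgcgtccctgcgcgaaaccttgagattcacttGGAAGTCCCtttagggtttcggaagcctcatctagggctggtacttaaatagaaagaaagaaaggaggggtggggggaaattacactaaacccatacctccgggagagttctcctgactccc
Mlkl, chr8:111338206-111338455, minus strand: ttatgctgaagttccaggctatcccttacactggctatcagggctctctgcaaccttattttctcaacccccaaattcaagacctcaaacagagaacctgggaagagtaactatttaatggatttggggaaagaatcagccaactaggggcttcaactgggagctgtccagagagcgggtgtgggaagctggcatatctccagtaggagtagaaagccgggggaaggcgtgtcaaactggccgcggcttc
Ripk3, chr14:55788858-55789107, minus strand: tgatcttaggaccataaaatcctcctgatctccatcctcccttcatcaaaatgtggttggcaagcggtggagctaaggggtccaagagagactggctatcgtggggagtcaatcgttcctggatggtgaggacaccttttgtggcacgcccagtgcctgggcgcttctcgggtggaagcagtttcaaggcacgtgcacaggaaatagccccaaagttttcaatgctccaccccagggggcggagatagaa

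The Bcl2l11 window shown had a GC content of 72.0% with 24 CpG dinucleotides, well over the medians of 52.4% and 6 of the 32851 windows in the table, while Mlkl (50.8%, 5 CpG) and Ripk3 (54.0%, 8 CpG) lay near them. This Bcl2l11 window held 1 EGR match beginning 50 bases before the start and 1 FOXO match on the opposite strand beginning 227 bases before it. The second Bcl2l11 window, at 128127325 to 128127574, had a GC content of 73.2% with 30 CpG and no match. EGR matches were in 4.70% and FOXO matches in 3.17% of all windows. The Bcl2l1 window shown held 1 NF-kB match on the opposite strand, a motif found in 1.43% of windows, and the windows of its other starts held none of the 5. The Mlkl and Ripk3 windows held none of the 5. Of the other regulators, Ripk1 alone had a match, to STAT (7.02% of windows), and AP-1, in 6.75% of windows, matched 0 of the 13. These are letter matches, with no measurement of binding. The shares are per motif over windows of any GC content, while the Bcl2l11 and Bcl2l1 windows were shown because they held a match. The EGR motif is all G and C apart from N, and its share among windows as rich in GC as that of Bcl2l11 was not measured.

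Among the guardians of mitochondria, Bcl2l1 (chr2:152780668-152831728, minus strand, 3 exons) encodes BCL-XL, which holds back BAX and BAK. It had 128 reads in Control 24 h, 158 in Control 48 h, 304 in APAP 24 h and 302 in APAP 48 h, or 26.3, 30.4, 53.3 and 61.2 RPM. Both APAP pools lay above both controls, with no overlap of their counting intervals. The fold was 1.78 at 24 h (95% interval 1.44 to 2.21) and 1.67 at 48 h (1.37 to 2.04), below 2 at both times and so not called. Between the 2 controls the ratio was 1.16 (0.916 to 1.48).

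With the pools of both times in a single fit (time and treatment as terms, 1 residual degree of freedom), the treatment term of Bcl2l1 was a log2 fold of 0.80, with an adjusted p of 0.0109 by edgeR's quasi-likelihood test with Benjamini-Hochberg adjustment over 14028 genes. This fit has 2 APAP against 2 control pools, takes any difference of effect between the times as error, and its p measures the spread between pools, not between animals. Of the 9 regulators it called 2 higher, Bcl2l1 and Bcl2l11, and 0 lower, against 3.07% of all genes higher and 4.95% lower, while 5 had an unadjusted p under 0.05, as did 20.4% of all genes. Neither call held without the Control 24 h pool or without the Control 48 h pool. Every fit with a library left out had treatment as its only term, and these 2 fits kept 1 control pool. They also called fewer of all genes, so the lost calls are not particular to these regulators. The log2 fold of Bcl2l1 was 0.68 without Control 24 h and 0.93 without Control 48 h. DESeq2's Wald test called 0 of the 9 (adjusted p = 0.242 for Bcl2l1), and the adjusted p of Bcl2l1 ran from 5.2e-04 to 0.243 over all alternatives.

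Mcl1 (chr3:95658788-95663176, plus strand, 3 exons) encodes MCL-1, a short-lived guardian on which hepatocytes depend. It had 211 and 260 reads in the controls, 414 in APAP 24 h and 325 in APAP 48 h (43.4, 50.1, 72.6 and 65.8 RPM). Its fold was 1.47 at 24 h (1.24 to 1.74) and 1.09 at 48 h (0.926 to 1.29). The 24 h difference was beyond counting error and the 48 h difference was not. That absence at 48 h depended on the setting. The fold was 1.31 by library totals (1.11 to 1.55), 1.27 against the other control pool (1.06 to 1.52) and 1.17 with both controls summed (1.01 to 1.35). The fold at 48 h over the fold at 24 h was 0.744, with an exact conditional interval of 0.585 to 0.945, and Mcl1 was the 1 regulator of 9 whose interval lay off 1, against 17.8% of all genes. Over both times its log2 fold was 0.36 (edgeR adjusted p = 0.285).

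Of the BH3-only genes, Bcl2l11 (chr2:128126038-128162547, plus strand, 4 exons) encodes BIM, which binds every guardian and can activate BAX directly. It gave the largest 24 h fold of the 9. Its reads were 7 in Control 24 h, 13 in Control 48 h, 51 in APAP 24 h and 30 in APAP 48 h, or 1.44, 2.50, 8.95 and 6.08 RPM. Both APAP pools stood above both controls, though the counting intervals of Control 48 h and APAP 48 h overlapped. The fold was 5.46 at 24 h (2.47 to 14.3), above that of 99.2% of the genes tested, and 2.02 at 48 h (1.02 to 4.21), just past both limits of a call. Against the control pool of the other time point the folds were 3.12 and 3.53, both called. With a pseudocount of 1 read the 48 h call was lost. The ratio of the folds, 0.370, had an interval of 0.113 to 1.14, so a smaller fold at 48 h was not shown at this depth.

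Over both times Bcl2l11 had a log2 fold of 1.69 (edgeR adjusted p = 0.0276). That call was lost without Control 24 h (adjusted p = 0.256), without Control 48 h (0.136), without APAP 24 h (0.104) and by DESeq2 (0.373), and over all alternatives its adjusted p ran from 4.4e-04 to 0.373. The 3 genes whose pattern lay nearest to that of Bcl2l11, by Euclidean distance over 3 log2 ratios (APAP over control at 24 h and at 48 h, and control 48 h over control 24 h) among 6925 genes averaging 50 normalised reads or more, were Il1r1 (distance 0.481), Junb (0.562) and Egr1 (0.565). Il1r1 encodes the interleukin-1 receptor, and Junb and Egr1 encode immediate early transcription factors. Their log2 folds at 24 h were 2.21, 2.25 and 2.51.

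Bid (chr6:120891930-120916853, minus strand, 6 exons) encodes the BH3-only protein that caspase-8 cuts. It had 19 and 22 reads in the controls and 46 and 45 reads in the APAP pools (3.91, 4.24, 8.07 and 9.11 RPM). The fold was 1.81 at 24 h (1.04 to 3.28) and 1.79 at 48 h (1.05 to 3.13), nearly the same at both times, with a ratio of the folds of 0.986 (0.440 to 2.20). Both intervals began just above 1, neither fold reached 2, and the edgeR treatment term was 0.86 on the log2 scale (adjusted p = 0.143).

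**Figure D2:**
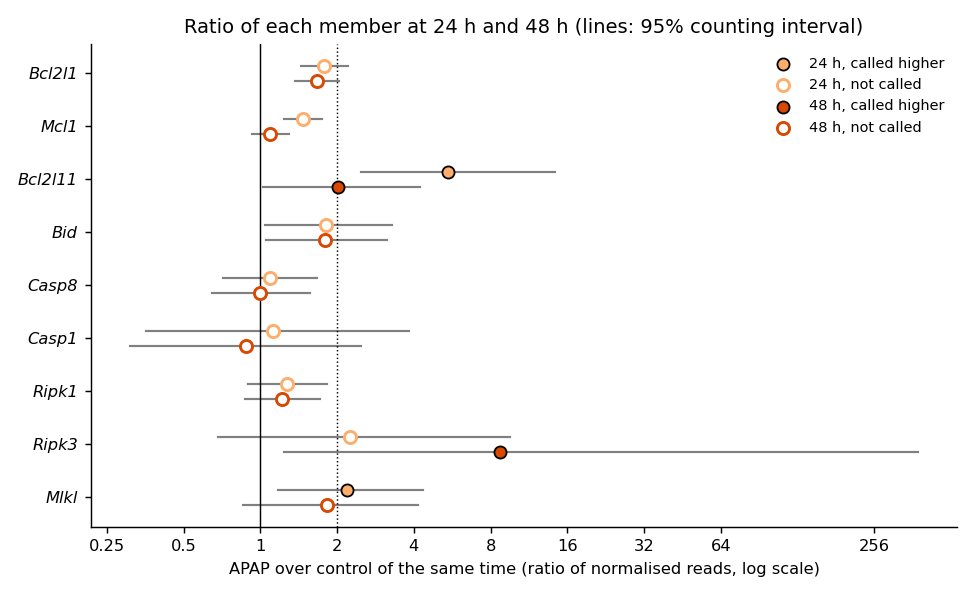
Ratio of normalised reads, APAP over the control of the same time (horizontal axis, log scale), for the 9 regulators at 24 h (light) and 48 h (dark); filled points were called higher, lines are 95% counting intervals, the solid line is at 1 and the dotted line at 2. Bcl2l11 at 24 h lies farthest right among the members with more than 3 control reads, and the line of Ripk3 at 48 h runs from 1.24 to 380 because its control had 1 read, so that its plain ratio is drawn.

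Neither caspase showed a difference beyond counting error. Casp8 (chr1:58795374-58847503, plus strand, 9 exons), the initiator caspase of death receptors, had 40 and 41 reads in the controls and 58 and 47 in the APAP pools (8.23, 7.90, 10.2 and 9.52 RPM). The fold was 1.09 at 24 h (0.714 to 1.67) and 1.0 at 48 h (0.645 to 1.56). No difference was detectable at this depth, and the intervals leave room for a change of up to 1.67-fold. The edgeR term was 0.08 on the log2 scale (adjusted p = 0.917).

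Casp1 (chr9:5298517-5307265, plus strand, 10 exons), the inflammatory caspase, had 6 and 9 reads in the controls and 9 in each APAP pool (1.23, 1.73, 1.58 and 1.82 RPM). All 4 libraries overlapped. With so few reads the fold of 1.12 at 24 h had an interval of 0.357 to 3.84, and that of 0.874 at 48 h ran from 0.308 to 2.49. Changes of 2-fold in either direction fit inside both intervals, and the edgeR adjusted p was 0.993.

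In the necroptosis chain Ripk3 and Mlkl, but not Ripk1, were called higher at 1 time each. Ripk1 (chr13:34002363-34037147, plus strand, 11 exons) encodes the kinase below the TNF receptor that sits at the branch between survival, apoptosis and necroptosis. It had 53 and 61 reads in the controls and 90 and 85 in the APAP pools (10.9, 11.7, 15.8 and 17.2 RPM). The fold was 1.27 at 24 h (0.896 to 1.82) and 1.22 at 48 h (0.867 to 1.72), neither beyond counting error, with an edgeR adjusted p of 0.462. By library totals both intervals lay just above 1, with folds of 1.45 (1.02 to 2.07) and 1.47 (1.04 to 2.07). Its entry in the table also carries the identifier of Gm17084, a processed pseudogene on the same strand that overlaps the last exon of Ripk1, so the reads of both cannot be separated.

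Ripk3 (chr14:55784995-55788865, minus strand, 10 exons) encodes the kinase that phosphorylates MLKL, and is scarce in healthy hepatocytes. It had 4 reads in Control 24 h, 1 in Control 48 h, 12 in APAP 24 h and 10 in APAP 48 h (0.823, 0.193, 2.11 and 2.03 RPM). The APAP pools were above the controls, but the counting interval of Control 24 h overlapped both of theirs, and that of Control 48 h overlapped APAP 48 h. At 24 h the fold was 2.25 with an interval of 0.681 to 9.56, so it was not called. The plain ratio at 48 h was 8.74 with an interval of 1.24 to 380, since it rests on 1 control read, and with the control raised to the floor of 3 reads it was 2.91 and called. Against the other control pool, or with a floor of 10 reads, the 48 h call was lost, and against the other control pool, or both controls summed, Ripk3 was called at 24 h instead or as well. The edgeR adjusted p was 0.191 (unadjusted p = 0.0329).

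Mlkl (chr8:111311797-111338177, minus strand, 11 exons) encodes the pseudokinase that ruptures the plasma membrane at the end of the chain. Its reads were 14 and 11 in the controls, 41 in APAP 24 h and 23 in APAP 48 h (2.88, 2.12, 7.19 and 4.66 RPM). APAP 24 h lay above both controls without overlap of intervals, and APAP 48 h overlapped both. The fold was 2.19 at 24 h (1.17 to 4.36), which was called, and 1.83 at 48 h (0.856 to 4.15), which was not. These folds did not differ beyond counting error, with a ratio of 0.833 (0.295 to 2.40). Over both times its log2 fold was 1.03 (edgeR adjusted p = 0.146), which passed the threshold only without APAP 48 h (adjusted p = 0.0400).

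The genes nearest to Mlkl by the same distance were 1110038B12Rik (0.0310), Mvp (0.118) and Tsc22d2 (0.126), and those nearest to Ripk3 were Rcc1 (0.233), Emp3 (0.246) and Yrdc (0.316). With so few reads in Ripk3 its neighbours are set in part by the floor. Between the control pools 0 of the 9 regulators were called, against 3.70% of all genes. The last 300 bases of the main transcript of each regulator matched no transcript of another gene at 95% identity over 100 bases or more, and only Ripk1 had another gene in its last exon.

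**Figure D3:**
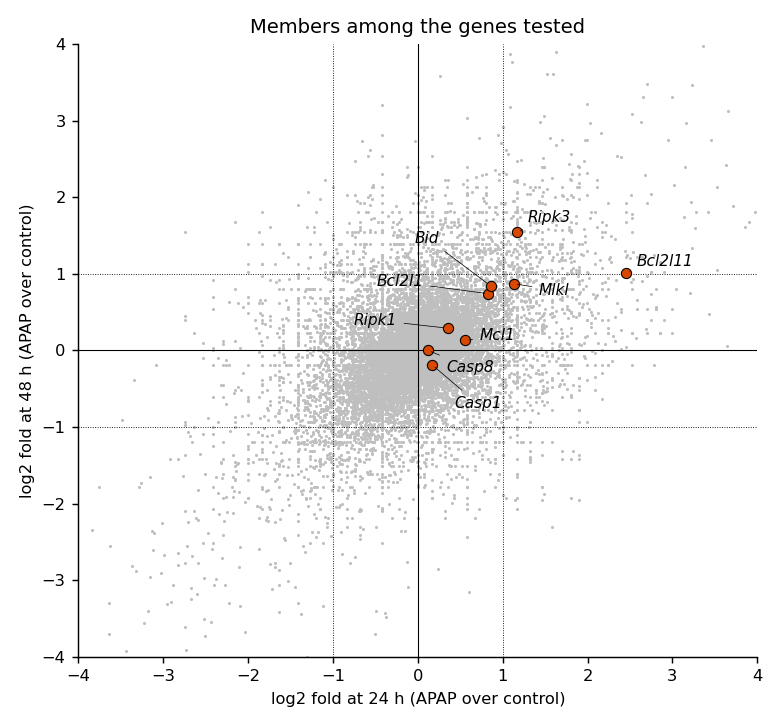
Each grey point is 1 of 13927 genes tested, by its log2 fold at 24 h (horizontal) and at 48 h (vertical), APAP over control; 30 genes outside the axes are not drawn, dotted lines mark 2-fold, and the 9 regulators are in colour, with Ripk3 drawn at its floored fold of 2.91 at 48 h. Bcl2l11 lies apart at the right (log2 2.45 and 1.01), Casp8, Casp1 and Ripk1 lie in the cloud near 0, and Bcl2l1 and Bid sit next to each other.

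The other genes of these pathways set the 9 in context. Of 82 listed in 9 groups, 79 were in the table and 63 passed the filter on low values, of which 1 was called higher and 1 lower at 24 h, and 4 higher and 1 lower at 48 h. Of all genes tested, 5.25% were called higher and 4.93% lower at 24 h, and 5.14% and 4.88% at 48 h. At such shares, 0 calls in a group of a few genes says little about that group. The median log2 folds of the 63, 0.00 and 0.11, were near those of all genes. Tnfrsf12a, the receptor of TWEAK, was the 1 gene called higher at both times, with 37 and 34 reads in the controls and 331 and 160 in the APAP pools, a fold of 6.70 at 24 h (4.76 to 9.69) and 4.12 at 48 h (2.83 to 6.15), and an edgeR adjusted p of 2.0e-05.

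The BAX and BAK proteins are the pores that Bcl2l1 and Mcl1 hold back, and 0 of the 3 pore genes were called (about 5% of all genes each way). Bax had 96 and 136 reads in the controls and 240 and 189 in the APAP pools, with a fold of 1.87 at 24 h (1.47 to 2.40) and 1.22 at 48 h (0.970 to 1.53). Bak1 had folds of 1.39 (1.05 to 1.84) and 1.08 (0.809 to 1.44). Of the 6 other BH3-only genes tested, Bbc3, which encodes PUMA, was called lower at 24 h (42 against 22 reads, fold 0.392, 0.223 to 0.673), opposite to Bcl2l11, and Bmf was called higher at 48 h (11 against 33 reads, fold 2.62, 1.29 to 5.75, or 5.44 against the other control pool). Bad, singled out after its values were seen, was the only other gene besides Tnfrsf12a with an edgeR adjusted p under 0.05 (folds 1.54 and 1.74, adjusted p = 0.0315), and lost it without Control 24 h (0.186), without Control 48 h (0.336) and by DESeq2 (0.618). Its adjusted p ran from 0.00275 to 0.618 over the alternatives.

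Around Casp8, 0 of the 15 tested partners of the TNF receptor complexes were called (about 5% of all genes each way). Fadd, its adaptor, had folds of 0.884 (0.596 to 1.32) and 1.39 (0.879 to 2.24), Cflar, which encodes its inhibitor FLIP, 1.25 (1.01 to 1.56) and 1.09 (0.862 to 1.39), and the receptors Fas (0.807 and 1.18) and Tnfrsf1a (0.951 and 1.04) were likewise not called. Among the 4 other caspases considered and tested, Casp4 (4 against 16 reads, fold 3.50, 1.13 to 14.4) and Casp6 (31 against 74, fold 2.09) were called higher at 48 h, and Casp9 (59 against 32, fold 0.474) lower. Casp4 passed the filter only through its APAP pools (3.41 and 4.29 normalised reads in the controls), and with a floor of 10 reads its fold was 1.40 and not called. Casp9 stood at 0.800 against the other control pool, which had 33 reads of it.

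The partners of Ripk3 and Mlkl were not called either, 0 of 7 (about 5% of all genes each way), and their median log2 fold was -0.42 at both times. With so few genes that count sets the partners apart neither from all genes nor from Ripk3 and Mlkl. Zbp1, a sensor that can engage RIPK3, had folds of 0.642 (0.381 to 1.08) and 0.802 (0.484 to 1.32). Of the 12 inflammasome and pyroptosis genes tested 0 were called, and Gsdmd, the substrate of caspase-1, had folds of 0.913 (0.700 to 1.19) and 1.09 (0.838 to 1.42). Nlrp3, an inflammasome sensor, had 0 reads in both controls and 7 and 4 in the APAP pools. Set against a floor of 3 reads in each control library, its fold at 24 h was 1.75, with a counting interval that began at 1.08. At 48 h the interval began at 0.577, so no difference beyond counting error was shown. Nlrp3 had too few reads to be tested.

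**Figure D4:**
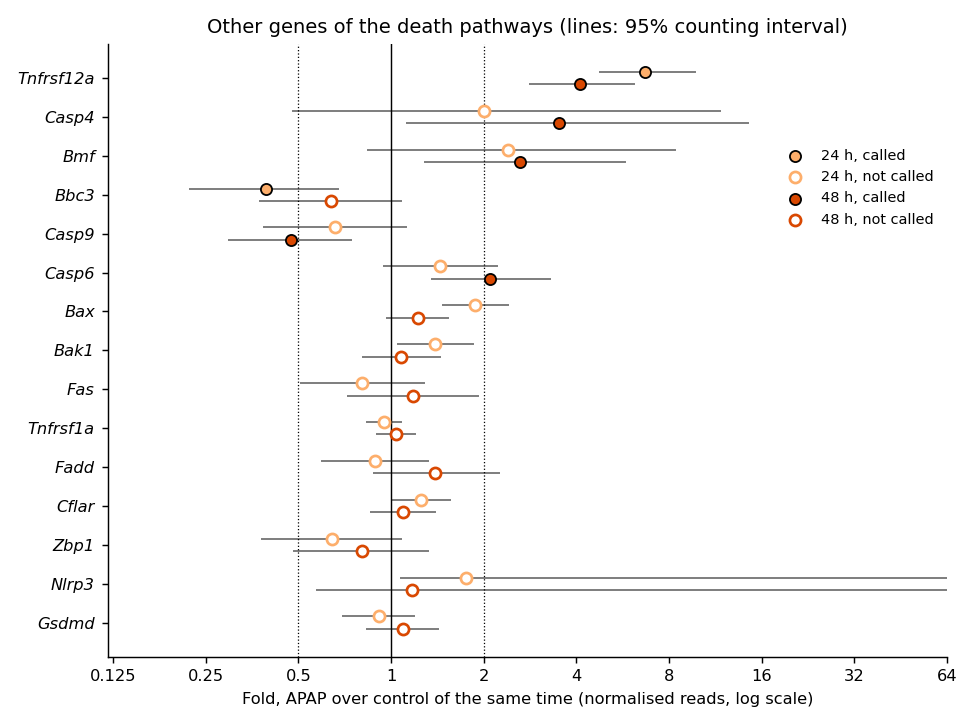
Fold of APAP over the control of the same time (horizontal axis, log scale) for the 6 other genes called at either time, Tnfrsf12a to Casp6, and 9 partners of the regulators, Bax to Gsdmd; light points are 24 h, dark points 48 h, filled points were called, lines are 95% counting intervals, and the lines of Nlrp3, drawn against the floor of 3 reads, have no upper end. Tnfrsf12a stands highest at both times and Bbc3 lowest at 24 h, with a fold of 0.392.

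Levels of cell type markers in the same pools are given here in RPM and, where said, as folds. Monocyte markers (5 of 5) summed to 20.6 to 23.9 RPM in the controls and 97.2 to 197 RPM in the APAP pools. Of the 5, 4 were called higher at 24 h and 5 at 48 h (5.25% and 5.14% of all genes). Ly6c2, Ccr2 and Itgam passed the filter largely through their APAP pools, so their calls carry little weight. Their normalised control reads at 24 h and 48 h were 3.41 and 5.36, 3.41 and 6.43, and 2.27 and 1.07. Lyz2 (folds 3.42 and 5.39) and Chil3 (11.6 and 42.3) were called at both times. Neutrophil markers (4 of 6 used here) went from 2.88 to 3.27 RPM to 32.4 to 42.3 RPM. Most of these reads were of S100a8 (139 and 106 in the APAP pools) and S100a9 (75 and 38). Cxcr2, not tested, had 9 and 0 reads in the APAP pools, and Retnlg was called at 24 h only. All-leukocyte markers (4 of 4) went from 34.3 to 35.4 RPM to 59.5 to 111 RPM. Among them Coro1a had folds of 2.96 and 6.82, Tyrobp 1.57 and 2.36, and Laptm5 0.963 and 2.26. Ptprc (1.75 and 2.14) was called at neither time. Kupffer cell and macrophage markers (8 of 8) spanned 172 to 176 RPM in the controls and 212 to 323 RPM in the APAP pools, with folds of the sum of 1.06 (0.971 to 1.16) and 1.56 (1.44 to 1.70). Of these 8, Marco (3.06 and 3.99) and Cd68 (1.88 and 5.11) had the largest folds, and 7 were not called at 24 h and 6 at 48 h. The Kupffer cell marker Clec4f was lower at 24 h (0.534, 0.441 to 0.645) and level at 48 h (0.985). The median log2 fold of the list was 0.03 and 0.39. B cell markers (4 of 4) were lower in the APAP pools, from 21.8 to 25.2 RPM to 3.85 to 4.56 RPM, with folds of 0.184 and 0.127. T and NK cell markers (6 of 6) were at 1.73 to 3.70 RPM in the controls and 1.05 to 2.63 RPM in the APAP pools, with folds of 0.25 at 24 h (0.0812 to 0.657) and 1.26 at 48 h (0.50 to 3.35), and Cd8a at 0 reads in all 4 libraries. Cholangiocyte markers (5 of 5) were at 25.9 to 32.6 RPM and 66.2 to 81.9 RPM. Stellate cell and fibroblast markers (6 of 6) were at 82.5 to 90.1 RPM and 112 to 185 RPM. In that list Col1a1 (1.44 and 4.50), Dcn (1.37 and 1.48) and Des (1.63 and 2.22) had folds above 1 at both times. Lrat (0.557 and 0.832) and Reln (0.957 and 0.846) had folds below 1 at both, and Col3a1 stood at 0.694 and 2.07. Of these 6, 0 were called higher at 24 h and 3 at 48 h (5.25% and 5.14% of all genes). Endothelial markers (6 of 6) were at 115 to 126 RPM and 138 to 154 RPM. The cholangiocyte sum was carried by Sox9 (folds 3.97 and 1.79) and Spp1 (1.90 and 2.14). At 48 h Epcam, Krt19 and Krt7 had folds of 0.612, 0.538 and 0.328, from few reads and not called. The median log2 fold of the cholangiocyte list was 0.49 at 24 h and -0.71 at 48 h. The folds of the endothelial sum were 1.05 and 1.01, and those of the hepatocyte sum 0.881 and 0.995. The part of these cells in the values of Bcl2l11, Ripk3, Mlkl or any other regulator was not tested. In bulk RNA, fewer cells of a type and less RNA per cell cannot be told apart.

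**Figure D5:**
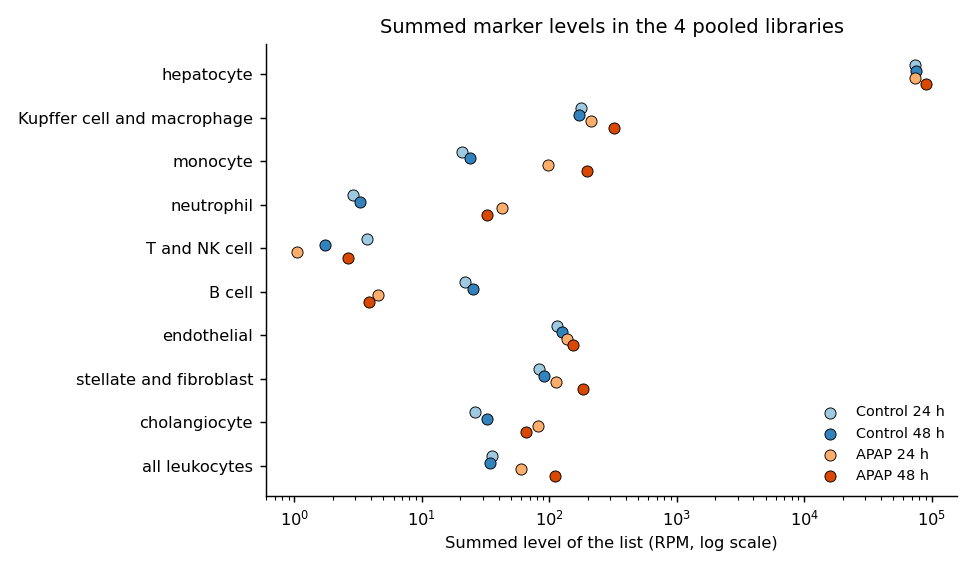
Summed level of 10 lists of cell type markers in RPM (horizontal axis, log scale) in the 4 pooled libraries, 1 point per library. The APAP pools lie right of the controls for monocyte and neutrophil markers, left of them for B cell markers, and close to them for hepatocyte and endothelial markers.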

How the data were processed

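MACE was run on 4 pooled liver RNA libraries. Per the study's methods and the labels, RNA was treated with DNase I, libraries were made with a MACE kit, PCR copies were removed by molecular identifiers, reads were trimmed with cutadapt and clipped of poly(A), mapped to mm10 and counted with HTSeq. The mapper and the tool versions are not given in the sources used here. The authors deposited raw counts per gene, which were used; their normalised columns of the same samples and their own fold changes, p-values and FDR were not used.

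Groups came from the labels. Counts were normalised with median-of-ratios size factors (DESeq2 1.42.0), 0.880 to 1.17. Fold intervals were exact Clopper-Pearson intervals at 95%, RPM intervals exact Poisson intervals, and the ratio of folds used the exact conditional interval. The smaller count was raised to 3 reads for a fold. edgeR 4.0.16 (R 4.3.3) fitted time and treatment on TMM-scaled counts of 14028 genes, with Benjamini-Hochberg adjustment. The pipeline was tested on simulated data. Python 3.11.15, scipy 1.17.1 and blastn 2.17.0 were used, with positions from GENCODE on GRCm38.

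The regulators, the gene lists and the markers were chosen with earlier results of these data known. Named were all regulators, every listed pathway gene called at either time, 9 partners whatever their values, and the 3 nearest genes of the 3 regulators with the largest mean log2 fold. The list genes Bcl2a1b, Tnfsf12 and Nlrp1a and the markers Ly6g and Mpo were not analysed here, and a few listed items are not reported here. Alternatives covered scaling, control pool, floor, pseudocount, fold, filter, left-out libraries (fitted with treatment as the only term) and DESeq2's test.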

Additional observations from a re-analysis of the deposited data

Results flagged for a closer look

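Results were looked at again where the fold at 48 h over the fold at 24 h had an interval off 1 among the regulators and the named genes of their pathways. For Mcl1 this ratio was 0.744 (0.585 to 0.945), from folds of 1.47 and 1.09. For Bax it was 0.649 (0.463 to 0.908), from folds of 1.87 and 1.22. Among all genes tested 17.8% had such an interval. It covers counting error only, with 1 library per group. The ratio of Control 48 h over Control 24 h was 1.16 (0.965 to 1.40) for Mcl1 and 1.34 (1.02 to 1.75) for Bax. Against the control pool of the other time point, the folds at 24 h and 48 h were 1.26 and 1.27 for Mcl1, and 1.40 and 1.62 for Bax.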

How the results depend on the processing

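No paired analysis was possible because each group has 1 library, and the replicate number only names it. Of 105 recomputed folds of the regulators 104 stayed inside the counting interval (the exception was Mcl1 at 48 h, 1.31 by library totals). Folds clearly on the other side of 1 were 5, all of Casp1, whose intervals include 1. Casp8 at 48 h, level in the main setting, also fell below 1 in some settings. It stood at 0.969 against the other control pool and at 0.986 with both controls summed, and both intervals include 1. Of 177 folds of the other named genes 168 stayed inside. All 18 recomputed ratios of folds kept their side of the threshold. Of 79 treatment terms of the regulators 69 kept their side of the threshold, 7 lost and 3 gained the call; 3 had the other sign, all of Casp1, never called (-0.01 on the log2 scale, 0.20 by library totals, 0.26 without Control 48 h and 0.05 without APAP 24 h); DESeq2 gave no adjusted p for 2 of the 9. The cause of the moves below was not tested. Against 2 regulators higher at 24 h, there were 4 by library totals, 4 at 1.5-fold and 1 at 5-fold; against 2 at 48 h, 5 by library totals, 4 at 1.5-fold, 0 at 5-fold, and 1 with the other control pool, a pseudocount, a floor of 10 reads or a mean of at least 20 reads. Of the other pathway genes, 1 higher at 24 h became 4 by library totals, 5 at 1.5-fold, and 2 without regard to the interval or with every gene; 1 lower became 4 with the other control pool, 3 with both controls summed, 4 at 1.5-fold, 0 at 5-fold and 2 without regard to the interval. At 48 h 4 higher became 8 by library totals, 7 with the other control pool, 0 at 5-fold and 2 at a mean of 20 reads; 1 lower became 0 by library totals, 0 with both controls summed, 5 at 1.5-fold, 0 at 5-fold and 3 without regard to the interval. The treatment term called 2 regulators, 0 by DESeq2, 4 by library totals and 0 to 3 with 1 library left out; of the other pathway genes it called 2, and 1 by DESeq2, 9 by library totals, 4 with every gene and 1 to 5 with 1 library left out. Over all genes it called 431 higher and 695 lower, against 115 and 298 by DESeq2, 1103 and 491 by library totals, 285 and 493 with treatment as the only term, 647 and 881 with every gene, 63 and 197 without Control 24 h, 45 and 126 without Control 48 h, 436 and 679 without APAP 24 h and 638 and 878 without APAP 48 h. Depth limits Casp1 (6 to 9 reads) and Ripk3 (1 to 12 reads) most.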

Other observations

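Some listed genes of the pathways had too few reads to be tested, and 3 of these are given here, chosen after their values were seen. Tnfrsf10b, the mouse receptor of TRAIL, had 0 reads in both controls, 4 in APAP 24 h and 12 in APAP 48 h. Against a floor of 3 reads in the control library its fold at 48 h was 3.50, with a counting interval that began at 2.43. Tnf had 0 reads in both controls and 3 in each APAP pool, at the floor. Tnfaip3, which encodes the ubiquitin-editing enzyme A20 that restrains signalling from the TNF receptor to RIPK1, had 1 and 3 reads in the controls and 10 and 7 in the APAP pools.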
